A study of Mus musculus with 2 samples.

Results

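The MS4A genes encode membrane proteins with 4 membrane-spanning stretches, and single genes of the family are known for single types of leukocyte. The 10 genes described here, Ms4a1, Ms4a2, Ms4a3, Ms4a4a, Ms4a4b, Ms4a4c, Ms4a6b, Ms4a6c, Ms4a6d and Ms4a7, were taken by name from the 54532 genes of the expression table. All 10 had reads in both libraries. In the mouse, Ms4a1 encodes the B cell protein CD20, Ms4a2 the beta chain of the IgE receptor of mast cells and basophils, and Ms4a3 a protein of granulocyte-monocyte progenitors (GMP). Ms4a4b and Ms4a6b are known from T cells, Ms4a4c and Ms4a6c from monocytes, and Ms4a4a, Ms4a6d and Ms4a7 from macrophages. Several of these proteins sit beside receptors of the immune system and alter their transport or signalling.

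RNA was sequenced from aortic macrophages of male ApoE-/- mice on a C57BL/6J background, which lack apolipoprotein E and accumulate plasma lipids. The labels give an age of 6 weeks, which was the age at the start, so both groups were older when sampled. The PDR (phlegm-dampness retention) group had a high-fat diet for 4 weeks. The SKYD (spleen and kidney Yang deficiency) group was gavaged for 4 weeks with propylthiouracil, an inhibitor of thyroid hormone synthesis (10 mg/kg per day), and then had a high-fat diet for 2 weeks. Mice were fasted for 18 h, the aorta was digested with trypsin, and cells were sorted on F4/80 and CD11b. Each group gave 1 library, made from the pooled cells of 5 mice. Syndrome, drug, time on the diet and age cannot be told apart, and no wild-type library was used here. With 1 library per group there is no spread between replicates and no test.

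Levels are FPKM, the reads of a gene divided by its length and by the library's size. The reads behind them summed to 23086889 in PDR and 25427863 in SKYD. Differences are log2(FPKM + 1) in PDR minus SKYD, so that a positive value means a higher level in PDR, and folds are ratios of FPKM. The 95% intervals are exact, Poisson for the level of a gene and Clopper-Pearson for how its reads split between the libraries, and they cover counting error only. A difference was counted as past 2-fold above 1 or below -1, among the 10399 genes whose mean FPKM reached 1.

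The genes that define the sort were read in both libraries. Adgre1, which encodes F4/80, had 87.3 FPKM in PDR and 93.3 in SKYD, and Itgam, which encodes CD11b, had 8.84 and 14.4. The 18 macrophage markers took 3.59% of reads in PDR and 6.60% in SKYD. Most of these reads came from Lyz2, the lysozyme gene of myeloid cells, which held 82.8% of the list's reads in PDR. Markers of other leukocytes were also present, so the libraries are described as sorted aortic cells. B cell markers took 0.380% and 0.109% of reads in PDR and SKYD, T cell markers 0.0550% and 0.273%, and classical monocyte markers 1.27% and 0.710%.

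The Ms4a genes known from B cells, granulocyte progenitors and T cells were higher in PDR, and those known from macrophages were higher in SKYD. Of the 9 members whose mean FPKM reached 1, 3 were more than 2-fold higher in PDR, against 7.38% of all genes compared. These were Ms4a1, Ms4a3 and Ms4a4b. More than 2-fold higher in SKYD was 1 member, Ms4a7, against 6.91% of all genes compared. The nearest member short of the threshold was Ms4a4a, with a difference of -0.99. The median difference of the 9 members was 0.40 and that of all genes compared was -0.0035. Ms4a2 did not reach a mean FPKM of 1.

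The order of the levels differed between the libraries. In PDR, the FPKM ran from Ms4a4c at 664 through Ms4a6d, Ms4a4a, Ms4a6c, Ms4a1, Ms4a6b, Ms4a4b, Ms4a3 and Ms4a7 to Ms4a2 at 0.621, and the counting intervals of neighbours did not overlap. In SKYD it ran from Ms4a6d at 732 through Ms4a4a, Ms4a6c, Ms4a4c, Ms4a6b, Ms4a1, Ms4a4b, Ms4a7 and Ms4a3 to Ms4a2 at 0.256. There the intervals of the neighbours Ms4a6c and Ms4a4c overlapped. Ms4a4c thus led in PDR and stood below Ms4a6d and Ms4a4a in SKYD, where its order against Ms4a6c was within counting error. The 5 genes known from monocytes and macrophages together held 79.8% of the members' summed FPKM in PDR and 92.9% in SKYD, while Ms4a1 held 8.83% and 0.886%. These shares depend on the gene lengths used.

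**Figure D1:**
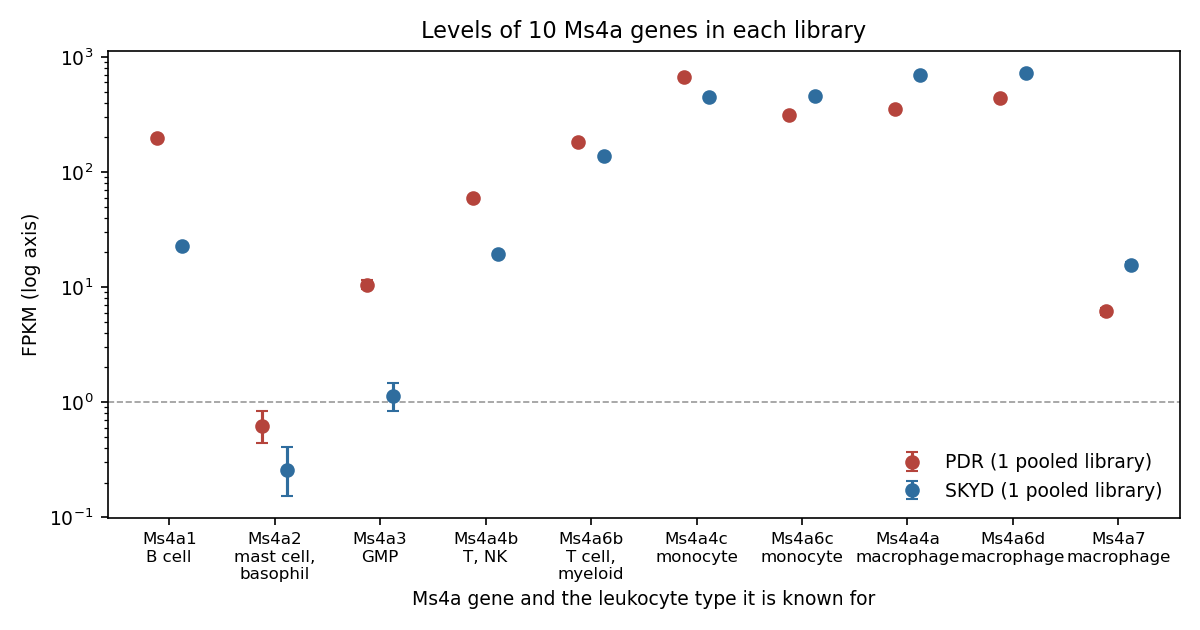
Levels of the 10 Ms4a genes. Each point is the FPKM (log axis) of a gene in the PDR library or the SKYD library, with its exact 95% Poisson interval, which is often smaller than the point, and the dashed line marks 1 FPKM. Ms4a1, Ms4a3 and Ms4a4b sit higher in PDR, and Ms4a4a, Ms4a6d and Ms4a7 sit higher in SKYD.

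Ms4a1 (ENSMUSG00000024673, chromosome 19 from 11249675 to 11266241 of GRCm38, minus strand) had the largest difference of the members on the log2(FPKM + 1) scale. Its level was 196 FPKM in PDR (95% CI 194 to 199) and 22.5 in SKYD (95% CI 21.8 to 23.3), from 28542 and 3486 reads. It was 8.71-fold higher in PDR (95% CI 8.41 to 9.03), a difference of 3.07. Of all genes compared, 99.4% had a lower difference. In pooled cells, fewer B cells and less Ms4a1 RNA per B cell cannot be told apart.

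The other B cell genes were also higher in PDR. All 12 of the 14 B cell markers that reached a mean FPKM of 1 had a higher level there, 11 of them by more than 2-fold, and their median difference was 2.12. Cd79b and Cd79a, which encode the signalling chains of the B cell receptor, had differences of 2.25 and 1.70. Cd24a, which other cells also express, had 0.69.

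On the log2(FPKM + 1) scale, Ms4a1 had a larger difference than each of these 12 genes. The ratio of Ms4a1 to Cd79a was 0.337 in PDR and 0.126 in SKYD. This ratio was 2.67 times higher in PDR (95% CI 2.55 to 2.79). Against Cd79b, the list's most abundant gene, the ratio changed less and was 1.83 times higher in PDR (95% CI 1.75 to 1.91). Ms4a1 thus did not differ by the same factor as Cd79a or Cd79b. As a ratio of FPKM, the 8.51-fold of Cd22 (95% CI 7.48 to 9.72) overlapped that of Ms4a1, and Cr2, under a mean FPKM of 1, was 14.0-fold higher in PDR (95% CI 9.39 to 21.7). Cd22 and Cr2 were named after their values were seen.

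Ms4a2 (ENSMUSG00000024680, 11615523 to 11623719, minus strand) had the fewest reads of the members. There were 41 in PDR (95% CI 29.4 to 55.6) and 18 in SKYD (95% CI 10.7 to 28.4), or 0.621 and 0.256 FPKM. It was 2.42-fold higher in PDR (95% CI 1.36 to 4.48), a difference of 0.37 on the log2(FPKM + 1) scale, which understates the change of low genes.

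The other chains of the IgE receptor did not follow Ms4a2. Fcer1a, which encodes the alpha chain that binds IgE, had 58 reads in PDR and 70 in SKYD, and the interval of its difference, -0.51 to 0.25, held 0. Fcer1g, the gamma chain that many myeloid cells use with other receptors, had 1471 and 2006 FPKM. The gamma chain thus had over 1000 FPKM in libraries in which the alpha and beta chains had under 3. The median difference of the 4 genes of the receptor complex, which also include the kinases Lyn and Syk, was 0.06, and it was 0.25 with a minimum mean FPKM of 5.

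Mast cell and basophil markers went both ways. Mcpt8, a basophil protease, was 3.19-fold higher in PDR (95% CI 2.29 to 4.52), and Cpa3, a protease of mast cells and basophils, was 2.43-fold higher in SKYD (95% CI 2.06 to 2.87). The interval of Ms4a2 overlapped that of Mcpt8, while Cpa3 had the opposite direction. Over the list of 13 genes, 6 reached a mean FPKM of 1, 2 were past 2-fold in PDR and 1 in SKYD, and the median was 0.11. This median changed sign with the filter, to -0.07 with none and -0.42 with a minimum mean FPKM of 5. The list's summed level was 34.5 FPKM in PDR and 34.8 in SKYD. Its most abundant gene was Prss34 in PDR, at 13.2 FPKM, and Cpa3 in SKYD, at 14.0. The connective tissue mast cell genes Tpsb2, Tpsab1, Mcpt4 and Mrgprb2, named because they were at 0, had no reads in either library, which allows up to 3 reads each. Cma1, a chymase gene of such mast cells named after its values were seen, had 66 reads in PDR and 15 in SKYD and was 4.68-fold higher in PDR (95% CI 2.64 to 8.83).

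Ms4a3 (ENSMUSG00000024681, 11629496 to 11640851, minus strand) had the second largest difference on the log2(FPKM + 1) scale. Its level was 10.5 FPKM in PDR (95% CI 9.53 to 11.5) and 1.13 in SKYD (95% CI 0.843 to 1.47), from 463 and 53 reads. It was 9.30-fold higher in PDR (95% CI 6.99 to 12.6), a difference of 2.43. As a ratio of FPKM, this interval held the fold of Ms4a1. The order of Ms4a1 and Ms4a3 turned with the scale. The difference of Ms4a3 was 3.21 against 3.12 for Ms4a1 with a pseudocount of 0.01, and 3.27 against 3.17 from reads per library total.

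Progenitor genes were split between the libraries. Elane, the neutrophil elastase gene, was 5.86-fold higher in PDR (95% CI 4.90 to 7.06), and Mpo, the myeloperoxidase gene, was 6.90-fold higher (95% CI 5.38 to 8.97). These genes are made early in granule formation. Prtn3, proteinase 3, was 1.69-fold higher in SKYD (95% CI 1.60 to 1.79). The ratio of Ms4a3 to Prtn3 was therefore 0.213 in PDR and 0.0135 in SKYD, while that to Mpo was 1.80 and 1.34, with a counting interval for its change that held 1. The ratio of Ms4a3 to Elane was 0.307 in PDR and 0.194 in SKYD, 1.59 times higher in PDR (95% CI 1.13 to 2.22).

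In the list of 10 progenitor genes, all reached a mean FPKM of 1, 4 were past 2-fold in PDR and 3 in SKYD. The 3 in SKYD, named after their values were seen, were Prss57, Gfi1 and Cd34, with differences of -2.02, -1.68 and -1.02. The list's median was 0.63, and it depended on the genes taken. It was 1.88 with a minimum mean FPKM of 5, and 0.37 without Nkg7, which cytotoxic lymphocytes also express. Nkg7 was the list's most abundant gene by mean FPKM and in PDR, while in SKYD Prtn3 stood above it, at 83.4 FPKM against 50.6. On the log2(FPKM + 1) scale Ms4a3 lay above every gene in the list. The summed level was 258 FPKM in PDR and 157 in SKYD, but without Nkg7 it was 115 and 107. Of 10 mature neutrophil genes, 8 had a higher level in PDR, with a median of 0.52, and the most abundant, S100a9, had 0.40. The difference of Ms4a3 exceeded each of these 10 too.

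Ms4a4b (ENSMUSG00000056290, 11443553 to 11463549, plus strand), a gene of T and NK cells, was higher in PDR while the T cell markers were lower there. Its level was 59.3 FPKM in PDR (95% CI 58.0 to 60.7) and 19.4 in SKYD (95% CI 18.7 to 20.2). It was 3.05-fold higher in PDR (95% CI 2.92 to 3.19), a difference of 1.56.

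All 15 T cell markers had a lower level in PDR, 12 by more than 2-fold, with a median of -1.89. Cd3e, a chain of the T cell receptor complex, had 5.19 FPKM in PDR and 28.4 in SKYD. The ratio of Ms4a4b to Cd3e was 11.4 in PDR and 0.685 in SKYD, 16.7 times higher in PDR (95% CI 15.0 to 18.6). The sum of the T cell markers was 182 FPKM in PDR and 942 in SKYD. The most abundant was Lck in PDR, at 47.9 FPKM, and Cd3d in SKYD, at 221. Ms4a4b thus did not track the genes of the T cell receptor complex.

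Genes of immature thymocytes had a larger median difference than the T cell markers, in the same direction, though single genes of the lists overlapped. All 9 were more than 2-fold higher in SKYD, with a median of -3.67 and a sum of 42.7 FPKM in PDR and 824 in SKYD. The most abundant was Cd8b1, and without it the sum was 2.96 and 289 FPKM. Dntt, which adds bases during the joining of receptor genes, had 39 reads in PDR and 10953 in SKYD. Rag2, part of the enzyme that cuts receptor genes for joining, had 0 and 2262 reads. The T cell list cannot separate mature T cells from thymocytes, which share the CD3 genes, and the part of thymocytes in its difference was not tested.

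The NK and cytotoxic T cell genes, in contrast, were nearly all higher in PDR. Of the 10 whose mean FPKM reached 1, 9 had a higher level in PDR and 8 were past 2-fold. The exception, named after its value was seen, was Klrd1 at -0.71. The median of 1.44 was close to the 1.56 of Ms4a4b, but single genes ran from -0.71 to 3.43. Of the 10, 6 had a lower difference than Ms4a4b and 4 a higher one. The sum of the list was 649 FPKM in PDR and 247 in SKYD, and its most abundant gene was Gzma, which encodes a granzyme of killer cells. The ratio of Ms4a4b to Nkg7, a granule gene of these cells, was 0.414 in PDR and 0.384 in SKYD, and the counting interval of its change, 0.995 to 1.17 times, held 1.

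Ms4a6b (ENSMUSG00000024677, 11516512 to 11531256, plus strand), which T cells and myeloid cells express, differed less. Its level was 183 FPKM in PDR (95% CI 180 to 185) and 138 in SKYD (95% CI 136 to 141). It was 1.32-fold higher in PDR (95% CI 1.29 to 1.35). This difference of 0.40 lay above all 15 T cell markers and below 8 of the 10 NK and cytotoxic T cell genes. The proteins of Ms4a4b and Ms4a6b are known to associate with GITR, a co-stimulatory receptor of T cells. Its gene, Tnfrsf18, had 18.2 FPKM in PDR and 20.3 in SKYD, a difference of -0.15.

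**Figure D2:**
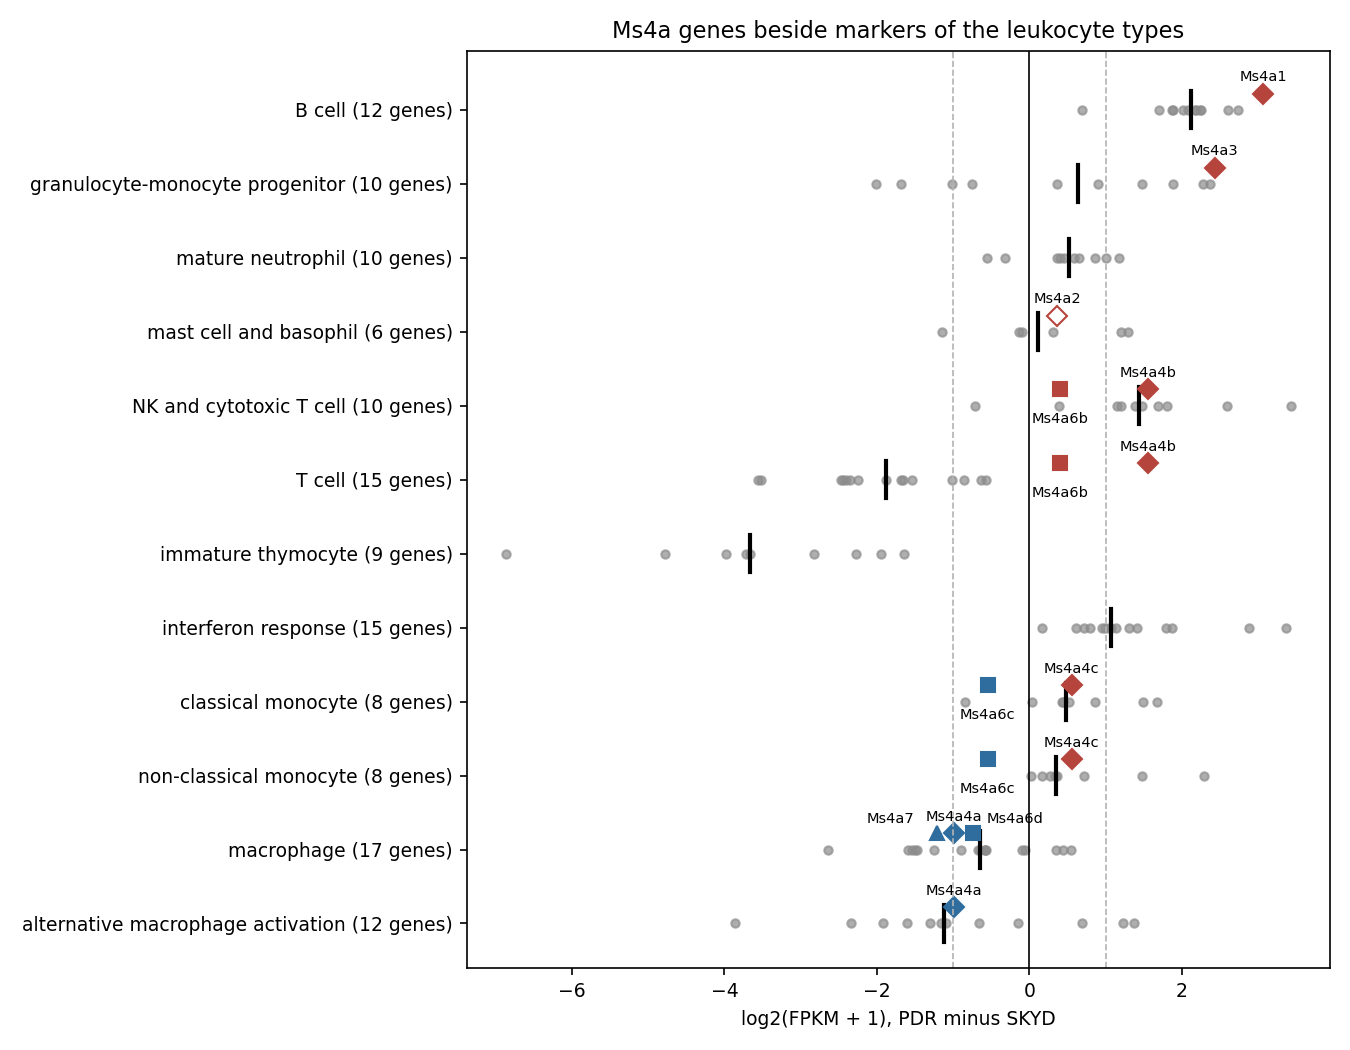
Differences of the Ms4a genes beside markers of the leukocyte types. The horizontal axis is log2(FPKM + 1) in PDR minus SKYD, grey points are the marker genes whose mean FPKM reached 1, black bars are list medians, coloured symbols are Ms4a genes (open for Ms4a2, under that level), and dashed lines mark 2-fold. Ms4a1 and Ms4a3 lie above every gene of their lists, and Ms4a4b lies near the median of the NK and cytotoxic list, far from the T cell median of -1.89.

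The monocyte members parted. Ms4a4c (ENSMUSG00000024675, 11404770 to 11427246, plus strand) had 664 FPKM in PDR (95% CI 656 to 672) and 451 in SKYD (95% CI 445 to 457). It was 1.47-fold higher in PDR (95% CI 1.44 to 1.50). Ms4a6c (ENSMUSG00000079419, 11469366 to 11482192, plus strand) had 315 FPKM in PDR (95% CI 310 to 321) and 461 in SKYD (95% CI 455 to 467). It was 1.46-fold higher in SKYD (95% CI 1.43 to 1.49). The folds were thus of nearly the same size in opposite directions, and the ratio of Ms4a4c to Ms4a6c was 2.10 in PDR and 0.978 in SKYD.

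Monocyte markers were mostly higher in PDR. Of the 8 classical monocyte genes whose mean FPKM reached 1, 7 had a higher level in PDR and 2 were past 2-fold, with a median of 0.49. Ly6c2, which encodes a surface antigen of classical monocytes, was 2.81-fold higher in PDR (95% CI 2.77 to 2.84), while Ccr2, the receptor that draws them out of the marrow, had 83.2 FPKM in PDR and 81.1 in SKYD. The sum of the classical list was 6040 FPKM in PDR and 3510 in SKYD. Its most abundant gene was Chil3 in PDR, at 2264 FPKM, and Plac8 in SKYD, at 1349. All 8 non-classical monocyte genes compared also had a higher level in PDR, 2 by more than 2-fold, with a median of 0.35, or 0.72 with a minimum mean FPKM of 5. The smallest difference, 0.02 for Spn, which was named after its value was seen, had an interval of -0.12 to 0.17 that held 0. Ms4a4c, at 0.56, lay near the medians of both lists, and Ms4a6c, at -0.55, lay below 7 of the 8 classical genes and all 8 non-classical ones.

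Interferon-responsive genes moved with the PDR library as well. The 15 of 16 genes whose mean FPKM reached 1 were all higher there, 9 by more than 2-fold, with a median of 1.07. Gbp2, the most abundant in PDR, had a difference of 2.88, and Isg15, the most abundant in SKYD, had 0.17. The list summed to 577 FPKM in PDR and 214 in SKYD. Ms4a4c lay below 14 of the 15. The part of interferon in the difference of Ms4a4c was not tested.

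The macrophage members were higher in SKYD. Ms4a4a (ENSMUSG00000101389, 11375523 to 11392790, plus strand), known from alternatively activated macrophages, had 352 FPKM in PDR (95% CI 344 to 361) and 702 in SKYD (95% CI 691 to 713). It was 1.99-fold higher in SKYD (95% CI 1.94 to 2.05), an interval that spans the 2-fold threshold. Ms4a6d (ENSMUSG00000024679, 11586604 to 11604849, minus strand) had 438 FPKM in PDR (95% CI 431 to 444) and 732 in SKYD (95% CI 724 to 740). That was 1.67-fold higher in SKYD (95% CI 1.64 to 1.70).

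Ms4a7 (ENSMUSG00000024672, 11321039 to 11336146, minus strand), a gene of tissue macrophages, had a far lower level. It had 6.14 FPKM in PDR (95% CI 5.67 to 6.63) and 15.6 in SKYD (95% CI 14.9 to 16.4). It was 2.54-fold higher in SKYD (95% CI 2.32 to 2.79), a difference of -1.22. The 3 genes thus shared a direction at levels far apart.

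Macrophage markers had a median difference of -0.64 over the 17 that reached a mean FPKM of 1, of which 14 had a higher level in SKYD and 6 were past 2-fold. The sum of all 18 was 27873 FPKM in PDR and 52627 in SKYD, and without Lyz2 it was 5655 and 11292. The 3 members lay within the range of this list, from -2.65 to 0.54. Relative to single markers the result varied. The ratio of Ms4a4a to Adgre1 was 4.04 in PDR and 7.52 in SKYD, and that of Ms4a6d was 5.02 and 7.84. Against Csf1r, the receptor for macrophage colony-stimulating factor, the ratio of Ms4a7 was 0.106 in PDR and 0.347 in SKYD.

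Against the complement gene C1qb, which resident macrophages express, none of the 3 ratios was higher in SKYD beyond counting error. The ratio of Ms4a4a to C1qb was 0.259 in PDR and 0.217 in SKYD, 1.19 times higher in PDR (95% CI 1.16 to 1.23). The ratio of Ms4a6d to C1qb was 0.322 in PDR and 0.226 in SKYD, 1.42 times higher in PDR (95% CI 1.39 to 1.46). For Ms4a7 the change of this ratio was 1.07 times, with an interval of 0.975 to 1.17 that held 1. The ratio of Ms4a6d to Itgam was 49.5 in PDR and 51.0 in SKYD, within counting error. Against Itgam, Ms4a4a was 1.23 times higher in SKYD (95% CI 1.13 to 1.33) and Ms4a7 1.57 times (95% CI 1.39 to 1.76). Whether a macrophage member was higher per macrophage marker thus depended on the marker.

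The protein of Ms4a4a is known to associate with Dectin-1, the receptor for beta-glucan, whose gene is Clec7a. Clec7a went the other way, with 134 FPKM in PDR and 57.0 in SKYD, so that the ratio of Ms4a4a to Clec7a was 2.62 in PDR and 12.3 in SKYD. Mrc1, the mannose receptor gene of alternatively activated macrophages, was 1.93-fold higher in SKYD (95% CI 1.65 to 2.27), and its ratio to Ms4a4a did not differ beyond counting error. Over 12 genes of alternative activation, 7 were past 2-fold in SKYD and 2 in PDR, with a median of -1.13. Retnla, the most abundant, was 5.06-fold higher in SKYD. The sum of this list was 2213 FPKM in PDR and 10220 in SKYD, most of it from Retnla, and the other 11 genes summed to 274 and 410.

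Other genes of the family were mostly silent or higher in SKYD. The table held 19 genes named Ms4a, of which 13 had more than 3 reads in a library. Ms4a5, Ms4a10, Ms4a12, Ms4a13, Ms4a15 and Ms4a18, named because they were at 0, had no reads in either library. Ms4a8a had 146 FPKM in PDR and 341 in SKYD, a difference of -1.22, and its level was thus within the range of the 10 members. Ms4a4d had 12 reads in PDR and 83 in SKYD, 6.50-fold higher in SKYD (95% CI 3.53 to 13.1). Ms4a14 had 19 reads in PDR and 2 in SKYD, a ratio of 10.1 with a counting interval of 2.44 to 89.5. The related genes Tmem176a and Tmem176b, which lie outside the cluster, had differences of -1.54 and -1.35.

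All 19 Ms4a genes lie within 679 kb of chromosome 19, from 10962293 to 11640851. Direction changed repeatedly along this interval. Among the protein-coding genes compared, in order of position from Ms4a7 on, Ms4a7 and Ms4a4a were higher in SKYD, Ms4a4c and Ms4a4b in PDR, Ms4a6c in SKYD, Gm8369 and Ms4a6b in PDR, Ms4a4d and Ms4a6d in SKYD, and Ms4a3 in PDR. Gm8369, a protein-coding gene between Ms4a6c and Ms4a6b, had 1203 reads in PDR and 501 in SKYD, a difference of 1.14. The highest level in the interval in PDR was that of AW112010, a long non-coding RNA gene, with 2045 FPKM, against 656 in SKYD, a difference of 1.64. In SKYD, Ms4a6d and Ms4a4a stood above it. Gm8369 and AW112010 were named after their values were seen.

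**Figure D3:**
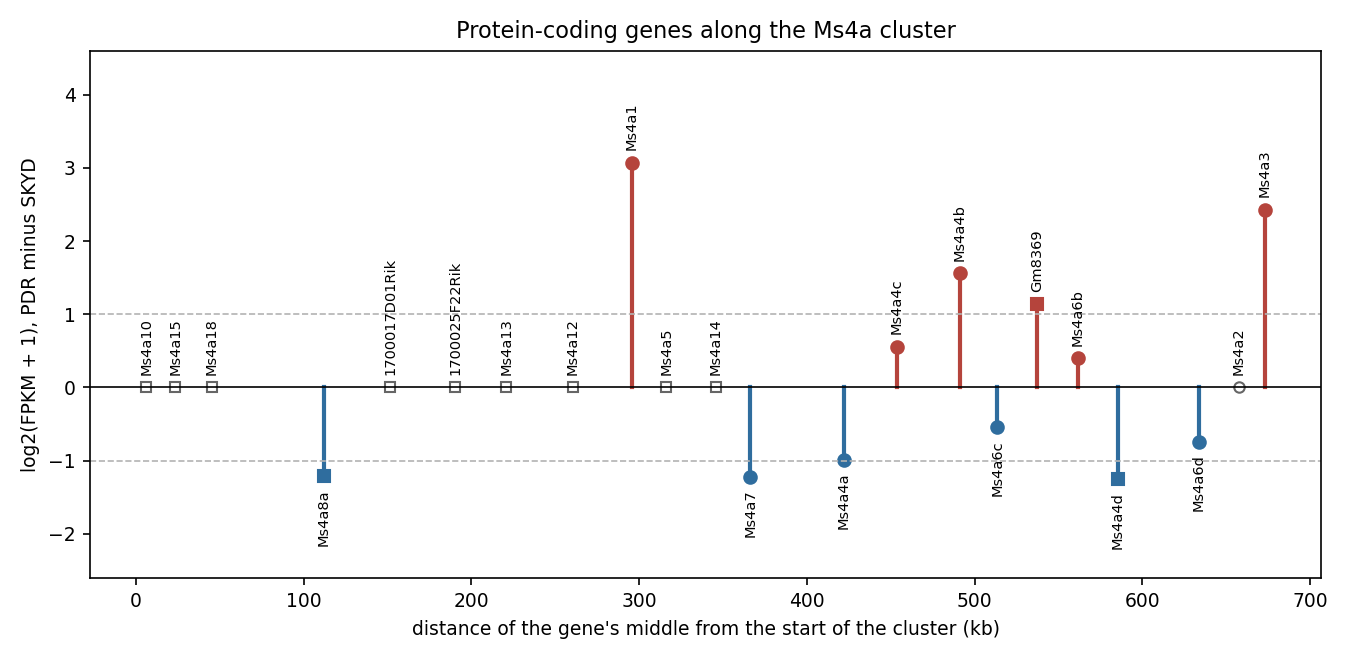
Differences along the Ms4a cluster. The horizontal axis is the distance in kb of each protein-coding gene's middle from the start of the cluster, the vertical axis is log2(FPKM + 1) in PDR minus SKYD, circles are the 10 members, squares are other genes, open symbols at 0 stand for genes under a mean FPKM of 1, and dashed lines mark 2-fold. Genes higher in PDR and genes higher in SKYD are interleaved from Ms4a7 to Ms4a3.

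Near neighbours in sequence also differed in direction. Coding sequences of the members, taken from GENCODE M21, were 226 codons long for Ms4a4b and for Ms4a4c, 291 for Ms4a1 and 213 for Ms4a3. Among the 45 pairs of members, the median identity over a global alignment was 50.4%, and 3 pairs were above 75%. Ms4a4b and Ms4a4c were 91.7% identical, Ms4a6b and Ms4a6d 80.2%, and Ms4a6b and Ms4a6c 75.6%. Both members of the closest pair were higher in PDR, by 3.05-fold and 1.47-fold. In each of the other close pairs, Ms4a6b was higher in PDR and its partner in SKYD. The ratio of Ms4a6b to Ms4a6c was 0.579 in PDR and 0.300 in SKYD.

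**Figure D4:**
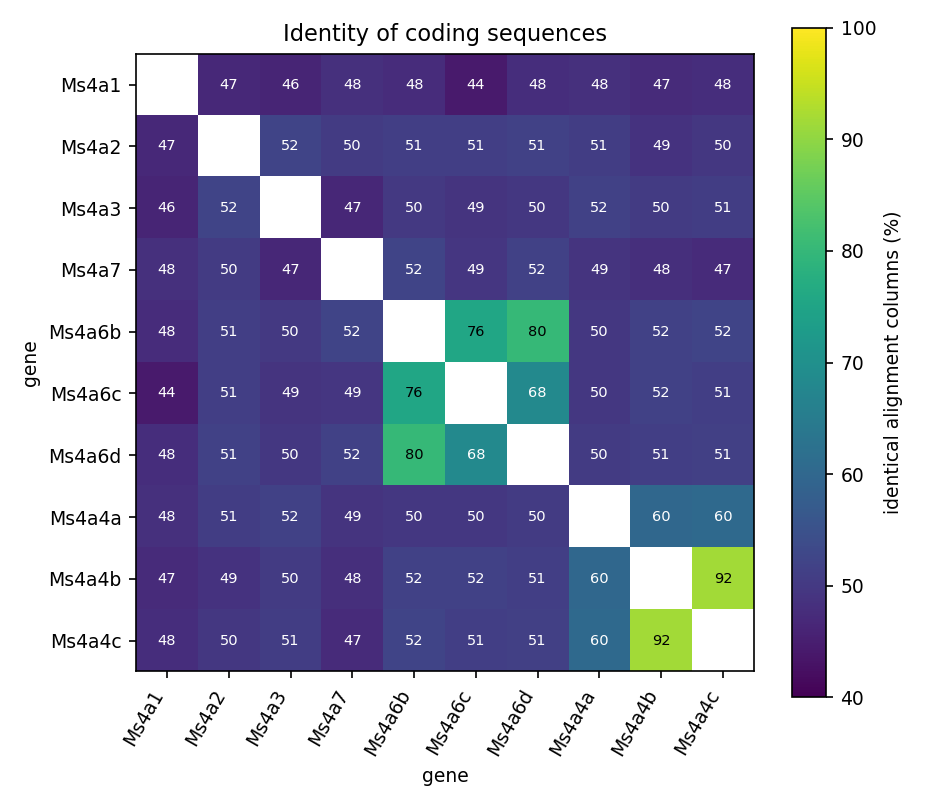
Identity of the coding sequences of the 10 members. Each cell gives the percentage of identical columns in a global alignment of the coding sequences of the genes on the 2 axes, on a colour scale from 40 to 100%. Ms4a4b and Ms4a4c form the closest pair at 92%, and Ms4a6b, Ms4a6c and Ms4a6d form a group.

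For the closest pair and for Ms4a6b with Ms4a6c, likeness extended upstream of the starts. RefSeq promoters (GRCm38.p6, 250 bases before to 50 after the start) were found for 8 of the 10 members, and not for Ms4a1 and Ms4a6d. In local alignments of the 250 upstream bases, the pairs Ms4a4c with Ms4a4b and Ms4a6c with Ms4a6b scored 98 and 110, against a median of 10 over 65 promoter pairs that also included Ms4a8a, Ms4a4d and Gm8369. The promoter of Gm8369 scored 117 with that of Ms4a4b and 101 with that of Ms4a4c, both above the score of Ms4a4c with Ms4a4b. The aligned stretches are shown because their genes differ in level and, for the Ms4a6 pair, in direction. Capitals mark the longest run that both genes of a pair share, and all are on the plus strand.
Ms4a4c, chr19:11407528-11407660: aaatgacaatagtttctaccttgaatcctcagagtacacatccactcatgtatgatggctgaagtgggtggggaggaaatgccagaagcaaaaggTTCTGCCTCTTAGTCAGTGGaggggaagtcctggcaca
Ms4a4b, chr19:11443422-11443553: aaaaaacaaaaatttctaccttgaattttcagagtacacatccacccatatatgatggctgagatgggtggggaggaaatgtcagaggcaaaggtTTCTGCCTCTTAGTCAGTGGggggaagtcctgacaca
Ms4a6c, chr19:11469193-11469366: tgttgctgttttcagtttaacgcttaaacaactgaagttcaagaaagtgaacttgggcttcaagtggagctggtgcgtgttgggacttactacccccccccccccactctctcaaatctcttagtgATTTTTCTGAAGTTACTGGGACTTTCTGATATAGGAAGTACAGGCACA
Ms4a6b, chr19:11518311-11518488: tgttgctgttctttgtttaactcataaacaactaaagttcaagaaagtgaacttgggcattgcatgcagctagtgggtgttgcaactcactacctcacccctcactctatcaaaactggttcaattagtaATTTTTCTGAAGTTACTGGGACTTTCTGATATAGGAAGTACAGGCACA

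The stretches of Ms4a4c and Ms4a4b were identical in 88.0% of 133 alignment columns, with a longest shared run of 20 bases. In Ms4a6c and Ms4a6b it was 82.2% of 180 columns, with a shared run of 48 bases. The run lay from 49 bases before the RefSeq start in Ms4a6c and from 118 bases before it in Ms4a6b. The RefSeq starts of Ms4a4c and Ms4a6b lie well inside the spans that the table gives for these genes, and those of Ms4a4b and Ms4a6c lie a few bases inside.

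Motifs were searched on both strands of the 300 bases and are a description of letters, not of binding. The PU box of myeloid and B cell promoters, GAGGAA, was found in 4 of the 8 members, Ms4a3, Ms4a4b, Ms4a4c and Ms4a7, and in 28.3% of all 32851 promoters. The members are counted by gene, and Ms4a7 was searched at both of its promoters, so this count and the share of all promoters differ in unit. In Ms4a4c and Ms4a4b the PU box lay within the aligned stretches, 61 and 64 bases before the start. In Ms4a3 and Ms4a7 it lay 35 and 43 bases after the start. The core of the interferon-stimulated response element, GAAANNGAAA, and the gamma-activated site, TTCNNNGAA, were found in 0 of the 8 and in 3.44% and 8.30% of all promoters.

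Reads of members could be confused with those of other genes at a few places. Windows of 100 bases of the transcripts of Ms4a4b and Ms4a4c, despite their likeness, were shared in 29 cases, or 1.66% of the windows of Ms4a4c. Ms4a2 and Ms4a4b shared 13 windows, or 0.406% of those of Ms4a2. Ms4a2 had 41 and 18 reads beside the 7352 and 2563 of Ms4a4b, and the part of shared reads in its fold was not tested. Ms4a6c overlaps the exons of BE692007, a non-coding gene on the opposite strand, over 1088 bases, which took in 45.8% of its windows. BE692007 had 1110 reads in PDR and 848 in SKYD, and without strand these cannot be told from reads of Ms4a6c. Ms4a6c itself had 15190 and 23627 reads. How many reads of the shared stretch were counted for neither gene was not measured, so the values of Ms4a6c are uncertain by an unknown amount. Overlaps of Ms4a4c with Gm5692 and of Ms4a6b with Gm19261 covered 28 and 19 bases.

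The length behind FPKM bears on the order of the levels. The table's length of Ms4a7, 4453 bases, was 2.83 times that of its longest protein-coding transcript, and that of Ms4a1 was 2.01 times, and the annotation holds 1 and 2 transcripts with retained introns for them. Per length of the longest protein-coding transcript, Ms4a1 stood at 395 in PDR, above Ms4a4a and Ms4a6c. In SKYD, Ms4a7 at 44.1 then stood above Ms4a4b at 21.6. The length of Ms4a3 was 1.87 times and that of Ms4a6b 1.67 times that of the longest protein-coding transcript. On this length Ms4a1 held 14.5% of the members' sum in PDR and 1.56% in SKYD, and the 5 monocyte and macrophage genes 71.0% and 89.7%. This length is the same in both libraries and leaves each ratio between them as it was.

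Marker lists of further cell types also differed. Hepatocyte genes had a median of 1.64 over 8 genes and a sum of 2123 FPKM in PDR and 736 in SKYD, with Apoa2 the most abundant. Erythroid genes had a median of -0.29 and a sum of 20988 and 28335 FPKM, with Hba-a1 the most abundant. Platelet genes had a median of 0.27 over 4 genes, which was -1.26 with a minimum mean FPKM of 5. Pf4, the most abundant, had -2.72, and Gp1bb, named because it was at 0, had no reads in either library. Dendritic cell genes had a median of -0.62 over 6 genes and a sum of 52.0 and 189 FPKM, or 9.62 and 22.0 without Cd209a, the most abundant. That median was -2.50 with a minimum mean FPKM of 5 and -0.14 with no filter. The part of such cells, or of their RNA, in the differences of the Ms4a genes was not tested.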

How the data were processed

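RNA from sorted aortic cells was sequenced in 1 pooled library for each of the PDR and SKYD groups. Per the submitters' notes and the methods, the authors filtered reads, aligned them with TopHat2 2.0.9 and Bowtie2 2.0.6, counted them with HTSeq 0.6.1 and deposited FPKM with gene lengths and positions. The notes also name DESeq 3.18.1, and no fold change or p-value of the authors was used. Strandedness is not given in the sources used here. The notes name mm9, but 98.3% of 54409 genes shared with GENCODE M21 had the same start and end as in that GRCm38 annotation, so positions are given in GRCm38.

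Reads were recovered as multiples of the step that 1 read adds to FPKM times length. All genes above 0 and under 1000 reads, 14345 in PDR and 17075 in SKYD, came out whole within 0.02. The compared genes were those whose mean FPKM reached 1, on the log2 scale with a pseudocount of 1 FPKM, as PDR minus SKYD. A count of 0 allows up to 3 reads, or 1.3e-05% of reads in PDR and 1.18e-05% in SKYD. Intervals of ratios to markers come from the 4 read numbers by a normal approximation on the log scale. Coding sequences and promoters were aligned with Biopython 1.88.

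Genes were named by rule. It takes the 10 members, other Ms4a genes with more than 3 reads, the 3 most abundant genes of each list by mean FPKM and set marker genes of each member, of which 1 is not reported here. Others are said to have been named after their values were seen or because they were at 0, and genes that overlap a member were named for their position. The members and lists were chosen with earlier results of these data known.

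Alternatives were pseudocounts of 0.1 and 0.01, no filter, a minimum mean FPKM of 5, TPM, centring on the median, reads per library total, a 4-fold threshold, protein-coding genes only and lists without shared genes. The length of the longest protein-coding transcript and list sums without the most abundant gene by mean FPKM were added after the data were seen. Steps were tested on simulated data. Computation used scipy 1.17.1, numpy 2.4.6 and pandas 2.3.3 under Python 3.11.15, and matplotlib 3.10.9 drew the figures.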

Additional observations from a re-analysis of the deposited data

How the results depend on the processing

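No paired analysis was possible because each group had 1 library, and no result has a replicate check. The direction of all 10 members was the same in all 60 alternative values of their differences. The largest shift was 0.96, for Ms4a2 from reads per library total. This shared direction was largely fixed by construction and is no check of the directions. A pseudocount or a gene length cannot turn a direction, and TPM, centring and reads per library total move all genes of a library alike. Counts of members past 2-fold were 3 in PDR and 1 in SKYD with both other pseudocounts, both other filters, TPM, centring and reads per library total. The 4-fold threshold left 2 in PDR and 0 in SKYD by its construction, and these counts were not recomputed for protein-coding genes only or for the length of the longest protein-coding transcript. Over all genes, 767 were past 2-fold in PDR and 719 in SKYD. The 4-fold threshold gave 194 and 216, and a minimum mean FPKM of 5, with fewer genes compared, gave 464 and 373. Reads per library total with no pseudocount gave 1170 in PDR and 990 in SKYD, and protein-coding genes only gave 542 and 473. Pseudocounts of 0.1 and 0.01 gave 1057 and 1096 in PDR, and 1010 and 1048 in SKYD. The difference of Ms4a2 depended most on the pseudocount, with 0.37 at 1 and 1.25 at 0.01, and its 41 and 18 reads set its precision. Of 78 alternative list medians, 75 had the main sign. The largest shift was 1.88, for the dendritic cell list with a minimum mean FPKM of 5. The exceptions in sign were the mast cell and basophil list, with no filter and with that minimum, and the platelet list with that minimum. Rescaling to TPM moved the median of all genes by 0.0094.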
